A study of Mus musculus with 4 samples.

Results

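The interleukin-6 (IL-6) family and its signalling route to STAT3 were examined in 4T1 cells, an established mouse mammary carcinoma line, with and without disruption of the death receptor CD95. The members were set by gene symbol, with earlier results of these data known. They were the ligands Il6, Il11 and Lif, the receptor chains Il6st, Il6ra, Lifr and Osmr, the transcription factor Stat3 and its feedback inhibitor Socs3. All 9 symbols were found among the 24411 genes of each library. Of these, 7 passed the filter on low values (at least 1 TPM, a transcript abundance scaled for length and library, in at least 2 libraries) and were tested. Il6 and Lifr did not pass it.

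The study compared 2 control libraries with 2 libraries labelled CD95ko, all from cultured 4T1 cells without a stated drug or cytokine treatment. The CD95ko cells carried Cas9 from a lentivirus with blasticidin selection, received a pair of guide RNAs meant to delete exon 9 of the CD95 gene (Fas), and were grown out from single sorted cells, so each CD95ko library is 1 clone. The protocol lists RNA from an untransduced control, from the Cas9-expressing line and from 2 clones, and the titles do not say which control is which. Nothing in the labels says that the libraries of a group are separate cultures of the same cells, so the p-values concern these particular lines and clones. The test draws the variance of each gene partly from all tested genes. The p-values therefore do not measure the spread between these lines and clones alone.

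Most cytokines of the IL-6 family share the signalling chain gp130, encoded by Il6st. IL-6 and IL-11 first bind their own receptor chain and then gp130, whereas LIF brings gp130 together with the LIF receptor. Oncostatin M uses gp130 with the chain encoded by Osmr. Kinases of the JAK family bound to these chains phosphorylate STAT3, which enters the nucleus and turns on target genes. Among these is Socs3, whose product binds gp130 and JAKs and shuts the signal down. In mammary tissue LIF and STAT3 are known for driving the regression of the gland after weaning, and IL-6 signalling is often active in breast carcinoma. Transcript levels do not show whether STAT3 was phosphorylated.

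The targeted gene Fas was listed at 49.4 and 39.2 TPM in controls, 15.8 TPM in CD95ko 1 and 49.5 TPM in CD95ko 2, so its transcript level separated only CD95ko 1 from the controls. Sequencing depth is unknown, since TPM carries no read numbers. The 11167 tested genes had a median of 16.3 TPM in control 2 and of 21.3 to 22.9 TPM elsewhere. All 6 epithelial markers were above 0 in every library, and their summed level was 2794 and 2873 TPM in controls, 4955 TPM in CD95ko 1 and 8718 TPM in CD95ko 2. Of 8 leukocyte markers, 6 were listed at 0 in all 4 libraries, among them Ptprc, Adgre1, Itgam, Lyz2 and Cd3e, and the list summed to between 40.05 and 151 TPM, all of it Cd68 and Csf1r. The 6 fibroblast markers summed to at most 4.52 TPM and the 4 endothelial markers to at most 0.28 TPM.

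Lif was the only one of the 3 ligand genes listed above 3 TPM, and it was lower in both CD95ko clones than in both controls without passing the test. Il6 and Il11 were at or near 0. The cells therefore listed 1 abundant IL-6 family ligand transcript among the 3, at a level per transcript length that placed it above 80.3% to 90.8% of the tested genes of the same library.

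Lif, which encodes leukaemia inhibitory factor, lies on the forward strand of chromosome 11 from 4257557 to 4272514 (GRCm38, GENCODE M21). It was listed at 126 and 140.3 TPM in controls, at 105 TPM in CD95ko 1 and at 72.4 TPM in CD95ko 2. Both clones lay below both controls, with CD95ko 2 lowest, and the group means were 133 ± 9.96 TPM in controls and 88.7 ± 22.9 TPM in the clones (SD, n = 2 in each group). The mean of the clones was 66.6% of the control mean. The log2 fold change on the log2(TPM + 1) scale was -0.60 ± 0.33 SE (95% interval -1.36 to 0.15, limma adjusted p = 0.43). It was -0.34 without CD95ko 2 and -0.87 without CD95ko 1.

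Il6, on chromosome 5 from 30013114 to 30019981, encodes the inflammatory cytokine that gave the family its name. It was listed at 1.21 TPM in control 1 and at 0 in control 2 and both clones. A single library above 0 gives no basis for a comparison between groups. Il11, on chromosome 7 from 4772373 to 4782859, encodes a cytokine known for roles in bone marrow, fibrosis and metastasis. Its values were 2.68 TPM in control 1, 0 in control 2, 0 in CD95ko 1 and 1.86 TPM in CD95ko 2. Each group thus held 1 library at 0 and 1 above it, and the log2 fold change of -0.18 ± 0.89 SE (limma adjusted p = 0.948) ranged from -1.12 to 0.76 when 1 library was left out.

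**Figure D1:**
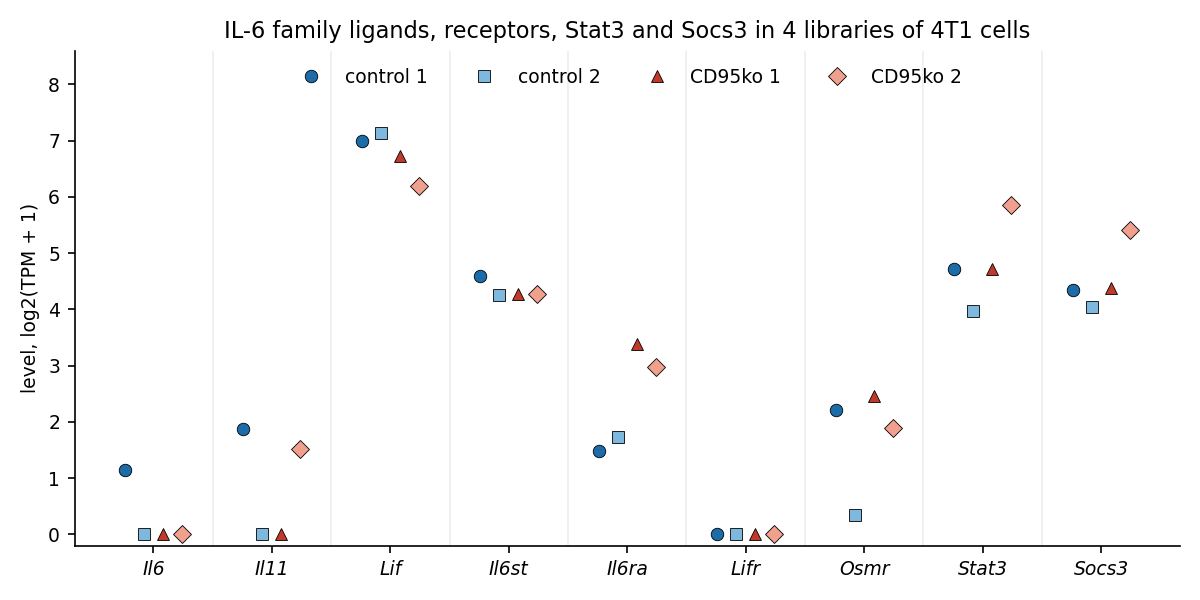
Level of each of the 9 members, as log2(TPM + 1), with 1 point per library (circles and squares, controls; triangles and diamonds, CD95ko clones). Lif is highest, Il6st sits at one level in all libraries, the Il6ra points of the clones lie above those of the controls, Lifr is at 0 throughout, and Stat3 and Socs3 stand highest in CD95ko 2.

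Among the receptor chains, Il6st was present at nearly one level in all libraries, Il6ra was low but about 4-fold higher in the clones by group means, Osmr was low and Lifr was listed at 0 everywhere. Il6ra was the single member with a limma unadjusted p under 0.05, and it did not pass after adjustment over all genes.

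Il6st, on chromosome 13 from 112464070 to 112510086, encodes gp130, the chain shared by IL-6, IL-11, LIF and oncostatin M. Its level was 23.2 and 18.1 TPM in controls and 18.45 and 18.4 TPM in the clones. The clones lay between the controls, so the groups overlapped, although under quantile normalization both clones lay below both controls. The log2 fold change was -0.15 ± 0.44 SE, with a 95% interval from -1.13 to 0.84 (limma adjusted p = 0.906). Control 1 set the sign of the estimate, which was 0.02 without that library.

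Il6ra encodes the chain that binds IL-6 itself, in a membrane form or, after shedding, a soluble form. It lies on the reverse strand of chromosome 3 from 89864059 to 89913196. Its level was 1.78 TPM in control 1, 2.34 TPM in control 2, 9.43 TPM in CD95ko 1 and 6.9 TPM in CD95ko 2. Both clones were above both controls, and the smallest of the 4 ratios between a clone and a control was 2.95. The means were 2.06 ± 0.396 TPM in controls and 8.17 ± 1.79 TPM in the clones (SD, n = 2 in each group), or 396% of the control mean. The log2 fold change of 1.57 ± 0.59 SE (95% interval 0.24 to 2.91) had a limma unadjusted p of 0.0254 and a limma adjusted p of 0.267. Of the tested genes, 95.8% had a lower fold change, and 9.47% had a smaller p-value. The estimate stayed between 1.37 and 1.78 when any 1 library was left out, but its limma unadjusted p was then 0.0836 without control 1, 0.059 without control 2, 0.0773 without CD95ko 1 and 0.0283 without CD95ko 2. It was 0.0756 with a filter on a mean of at least 5 TPM. An annotated antisense gene, Gm42809, overlaps the first 281 bases of Il6ra on the opposite strand (chromosome 3, 89912916 to 89914053). Gm42809 is not among the gene symbols of the deposited tables, and no strand setting is stated, so reads from it could not be told apart from Il6ra reads there. The 250 bases before the Il6ra start are shown because that antisense exon covers all of them (RefSeq, GRCm38.p6, chr3:89913197-89913446, reverse strand, 5′ to 3′).
Il6ra: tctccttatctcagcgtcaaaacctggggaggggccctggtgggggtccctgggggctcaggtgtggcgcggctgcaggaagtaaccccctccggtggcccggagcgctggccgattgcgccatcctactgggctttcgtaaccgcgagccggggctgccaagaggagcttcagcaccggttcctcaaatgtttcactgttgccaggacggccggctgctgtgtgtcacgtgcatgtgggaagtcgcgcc

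Lifr, on chromosome 15 from 7090614 to 7197489, encodes the receptor chain that LIF needs beside gp130. It was listed at 0 in all 4 libraries. The abundant Lif transcript was thus listed without a Lifr transcript in these cultures. Osmr, which neighbours Lifr on chromosome 15 (6813577 to 6874969) and encodes the oncostatin M receptor chain, was listed at 3.64 TPM in control 1, 0.27 TPM in control 2, 4.5 TPM in CD95ko 1 and 2.69 TPM in CD95ko 2. Control 2 stood below the other 3 libraries, and the value of control 1 lay between those of the clones. The log2 fold change of 0.89 ± 0.78 SE (limma adjusted p = 0.623) was -0.04 without control 2 and 1.83 without control 1.

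Stat3 and Socs3 showed one pattern: they were highest in CD95ko 2, while CD95ko 1 was at the level of control 1. Neither passed the test. Stat3 encodes the transcription factor of the pathway and lies on the reverse strand of chromosome 11 from 100885098 to 100939540. Stat3 was at 25.4 TPM in control 1, 14.7 TPM in control 2, 25.3 TPM in CD95ko 1 and 57.3 TPM in CD95ko 2. The ratio of CD95ko 1 to control 1 was 0.996, and the ratio of CD95ko 2 to control 1 was 2.25. The groups overlapped, with means of 20.05 ± 7.6 TPM in controls and 41.3 ± 22.6 TPM in the clones (SD, n = 2 in each group). The log2 fold change of 0.95 ± 0.51 SE (95% interval -0.22 to 2.11, limma adjusted p = 0.424) was 0.37 without CD95ko 2 and 1.52 without CD95ko 1. The last 72 bases of Stat3 overlap the end of Stat5a on the opposite strand. Stat5a was listed at 5.65, 2.17, 0.89 and 24.7 TPM in control 1, control 2, CD95ko 1 and CD95ko 2, so both genes of the overlap were highest in CD95ko 2. Whether shared reads contributed was not tested.

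Socs3, on the reverse strand of chromosome 11 from 117966079 to 117970047, was listed at 19.4 TPM in control 1, 15.5 TPM in control 2, 19.9 TPM in CD95ko 1 and 41.6 TPM in CD95ko 2. Both clones lay above both controls, but CD95ko 1 exceeded control 1 by a ratio of only 1.02, and the groups overlapped under quantile normalization. The means were 17.5 ± 2.78 TPM in controls and 30.7 ± 15.3 TPM in the clones (SD, n = 2 in each group). The log2 fold change of 0.70 ± 0.49 SE (95% interval -0.41 to 1.80, limma adjusted p = 0.533) was 0.18 without CD95ko 2 and 1.21 without CD95ko 1. CD95ko 2 also had the highest summed level of epithelial markers among the 4 libraries. Its leukocyte marker sum was highest through Cd68 (146 TPM), whereas Csf1r was at 22.2 TPM in CD95ko 1 and 5.07 TPM in CD95ko 2. The part of cell state in the Stat3 and Socs3 values was not tested.

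Because STAT3 binds DNA at a palindrome written TTCNNNGAA, which reads the same on both strands, the 250 bases before each annotated start were searched for it in RefSeq (GRCm38.p6). All 9 members had such a window, 11 windows in all, and 1 held a match, that of Socs3. Of 32851 promoter windows of this length, 7.02% held at least 1 match. A match describes letters and does not show binding in these cells. The Socs3 match starts 154 bases before a start annotated in RefSeq, but lies inside the gene span given above, in an intron of a longer GENCODE transcript that starts at 117970047. It is shown with its surroundings (chr11:117969501-117969530, reverse strand), with the palindrome in capitals. The Stat3 window (chr11:100939541-100939790, reverse strand) is shown beside it because both genes stood highest in the same clone. It holds no such palindrome.
Socs3: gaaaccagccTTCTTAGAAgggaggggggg
Stat3: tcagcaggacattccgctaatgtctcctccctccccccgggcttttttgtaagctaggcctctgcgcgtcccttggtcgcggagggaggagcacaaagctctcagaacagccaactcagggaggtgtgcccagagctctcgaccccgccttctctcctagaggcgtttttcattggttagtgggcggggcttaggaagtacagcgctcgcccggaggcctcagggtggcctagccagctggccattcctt

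In the test across all genes, 0 of the 7 tested members passed a limma adjusted p of 0.05, against 6 of 11167 genes (0.0537%). A limma unadjusted p under 0.05 was reached by 1 member, Il6ra, against 14.9% of all tested genes. By direction, 9.25% of all tested genes reached it with higher values in the clones and 5.68% with lower values. Both clones lay above both controls for 2 members, Il6ra and Socs3, against 29.2% of all tested genes, and below both for 1 member, Lif, against 18.3%. These shares are near those of all genes. The median log2 fold change was 0.70 over the 7 tested members and 0.13 over all tested genes, a difference that was not tested. Permuting 2 libraries against 2 exactly allows no two-sided p below 0.333, so single genes have only the p-values of the model.

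**Figure D2:**
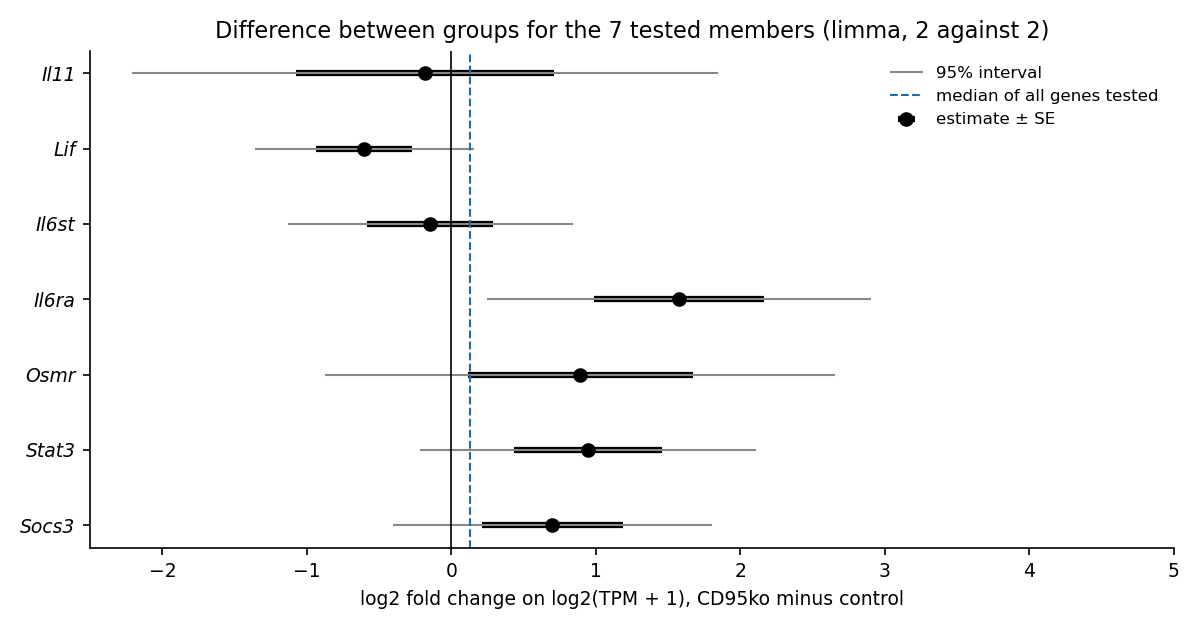
Log2 fold change on the log2(TPM + 1) scale, CD95ko minus control, for the 7 tested members (points, with thick bars for the SE and thin lines for the 95% interval of limma; dashed line, median of all tested genes, 0.13). Only the interval of Il6ra, 0.24 to 2.91, lies wholly on one side of 0, before adjustment over all genes.

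The members also differed within groups. Between the 2 controls, 2 of the 7 tested members, Il11 and Osmr, were over 2-fold apart on the TPM + 1 scale, against 14.4% of all tested genes. Between the 2 clones, 3 of the 7, Il11, Stat3 and Socs3, were over 2-fold apart, against 23.3% of all tested genes. The ratio of CD95ko 2 to CD95ko 1 was 2.26 for Stat3 and 2.09 for Socs3. For Lif that ratio was 0.691 and for Il6ra 0.732, so the direction of the difference between the clones was not shared by the members. With 1 library on each side these are values without a test.

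**Figure D3:**
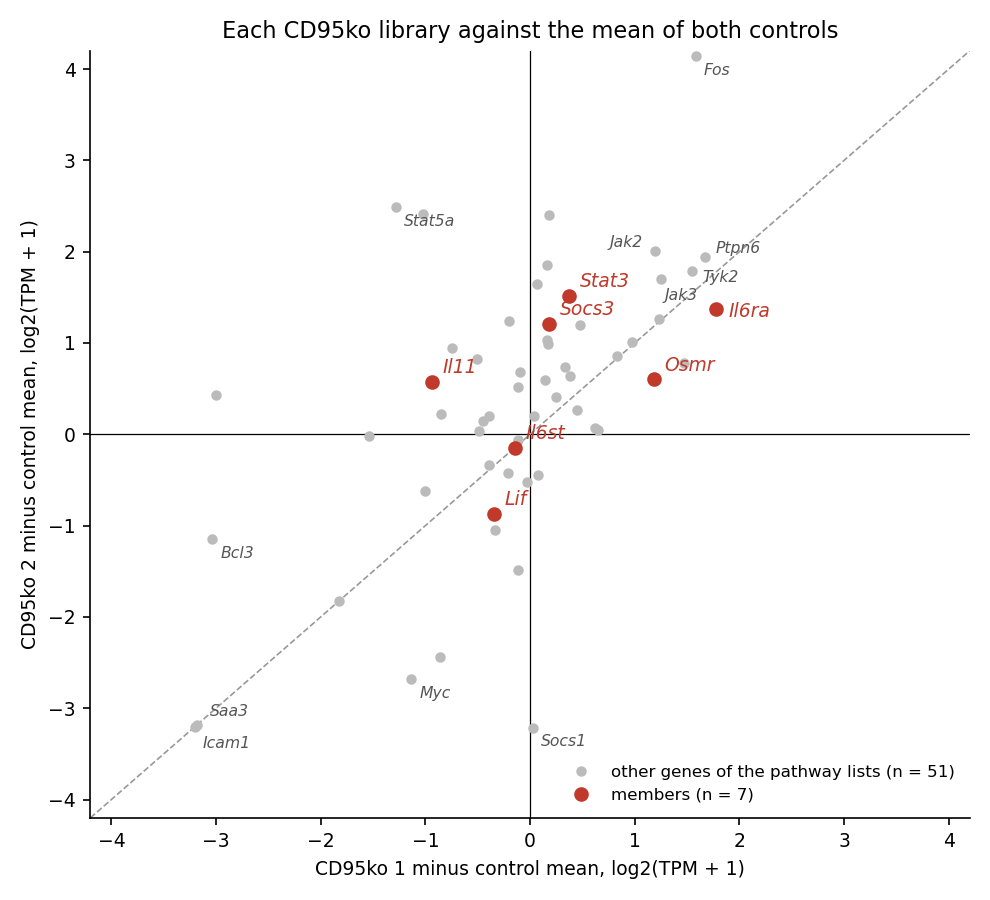
Difference in log2(TPM + 1) from the mean of both controls, for CD95ko 1 (horizontal) and CD95ko 2 (vertical), with the 7 tested members in red and 51 other tested genes of the pathway lists in grey; the dashed line marks equal differences, and both axes share the same controls. Il6ra lies to the upper right (1.78 and 1.37), while Stat3 (0.37 and 1.52) and Socs3 (0.18 and 1.21) lie near the vertical axis.

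The rest of the pathway was covered by lists of 66 genes in all, of which 51 were tested and 0 passed a limma adjusted p of 0.05. A limma unadjusted p under 0.05 was reached by 12 of the 51, against 14.9% of all tested genes. Of the 12, 6 were higher and 6 lower in the clones, against 9.25% and 5.68% of all tested genes. The counts below are descriptions, and the same shares over all genes are those given above.

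Most other ligand genes of the family were listed at or near 0. Of 9, 3 were tested, and none reached a limma unadjusted p under 0.05. Osm (oncostatin M), Ctf2, Ebi3 and Il31 were listed at 0 in all 4 libraries. Clcf1, which encodes cardiotrophin-like cytokine factor, was listed at 27.1 and 46.9 TPM in controls and at 28.1 and 16.7 TPM in the clones, so the groups overlapped (log2 fold change -0.69 ± 0.47 SE, limma adjusted p = 0.518). Ctf1 (cardiotrophin 1) was listed at 17.6 and 4.17 TPM in controls and at 4.86 and 17.8 TPM in the clones, so each group held 1 high and 1 low library.

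Of the 5 other receptor genes 2 were tested, and both had a negative log2 fold change. Cntfr, the receptor chain for ciliary neurotrophic factor, was listed at 4.31 and 1.37 TPM in controls and at 0 in both clones (limma unadjusted p = 0.0352, limma adjusted p = 0.292). Cntfr passed the filter on low values through the controls alone, so its p-value is only a description. Il11ra1, the chain that binds IL-11, was listed at 6.35 and 7.74 TPM in controls, at 0 in CD95ko 1 and at 9.76 TPM in CD95ko 2. The clones thus lay on both sides of the controls (log2 fold change -1.29 ± 1.00 SE, limma adjusted p = 0.578). Without CD95ko 2 the log2 fold change of Il11ra1 was -3.00, and without CD95ko 1 it was 0.42.

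The JAK kinases were higher in both clones than in both controls, each without passing after adjustment. Of all tested genes, 29.2% lay above both controls in both clones. Jak2, the kinase known for cytokine and growth hormone receptors, was listed at 23.4 and 12.7 TPM in controls and at 40.9 and 72.4 TPM in the clones (log2 fold change 1.60 ± 0.47 SE, limma adjusted p = 0.191). Tyk2, a kinase of interferon and IL-12 receptors, was listed at 10.3 and 6.7 TPM in controls and at 26.2 and 31.1 TPM in the clones (log2 fold change 1.67 ± 0.47 SE, limma adjusted p = 0.182). Jak3, known mainly from lymphocytes, was listed at 12.9 TPM in each of the controls and at 32 and 44.2 TPM in the clones (log2 fold change 1.48 ± 0.43 SE, limma adjusted p = 0.187). Jak1, the main kinase of gp130, differed least, with 31.6 and 28.1 TPM in controls and 40.9 and 36.05 TPM in the clones (log2 fold change 0.36 ± 0.38 SE, limma adjusted p = 0.697). Of the 9 tested genes in the list of JAK kinases and other STATs, 3 reached a limma unadjusted p under 0.05. All were higher, as were 9.25% of all tested genes at that threshold. The median log2 fold change of the list was 0.58 against 0.13 over all tested genes. When any 1 library was left out, the log2 fold change of Jak2 ranged from 1.18 to 2.02.

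Of the other STAT genes, Stat6, which transmits IL-4 signals, was 51.3 and 49.8 TPM in controls and 63.8 and 85.2 TPM in the clones (limma adjusted p = 0.505). Stat5a, the prolactin-responsive STAT of mammary epithelium, was high in CD95ko 2 alone, at the values given beside Stat3.

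Among negative regulators, 10 of 11 were tested, and 2 reached a limma unadjusted p under 0.05. Both were higher in the clones, as were 9.25% of all tested genes at that threshold. The median of the list was 0.36 against 0.13 over all tested genes. Ptpn6, which encodes the phosphatase SHP-1, was listed at 9.89 and 8.44 TPM in controls and at 31.3 and 38.02 TPM in the clones, with no overlap (log2 fold change 1.81 ± 0.44 SE, limma adjusted p = 0.147). Pias3, whose product binds STAT3 and blocks its DNA binding, was 8.92 and 7.9 TPM in controls and 21.05 and 21.5 TPM in the clones (log2 fold change 1.24 ± 0.47 SE, limma adjusted p = 0.27). Socs1, a relative of Socs3, was 18.1 and 3.5 TPM in controls, 8.45 TPM in CD95ko 1 and listed at 0 in CD95ko 2, the clone in which Socs3 was highest (log2 fold change -1.59 ± 1.08 SE, limma adjusted p = 0.521). Without CD95ko 1 the Socs1 value was -3.21, and without CD95ko 2 it was 0.03. Ptpn11, which encodes SHP2, a phosphatase that docks on gp130, overlapped between groups, at 97.1 and 59.03 TPM in controls and 79.7 and 55.4 TPM in the clones.

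**Figure D4:**
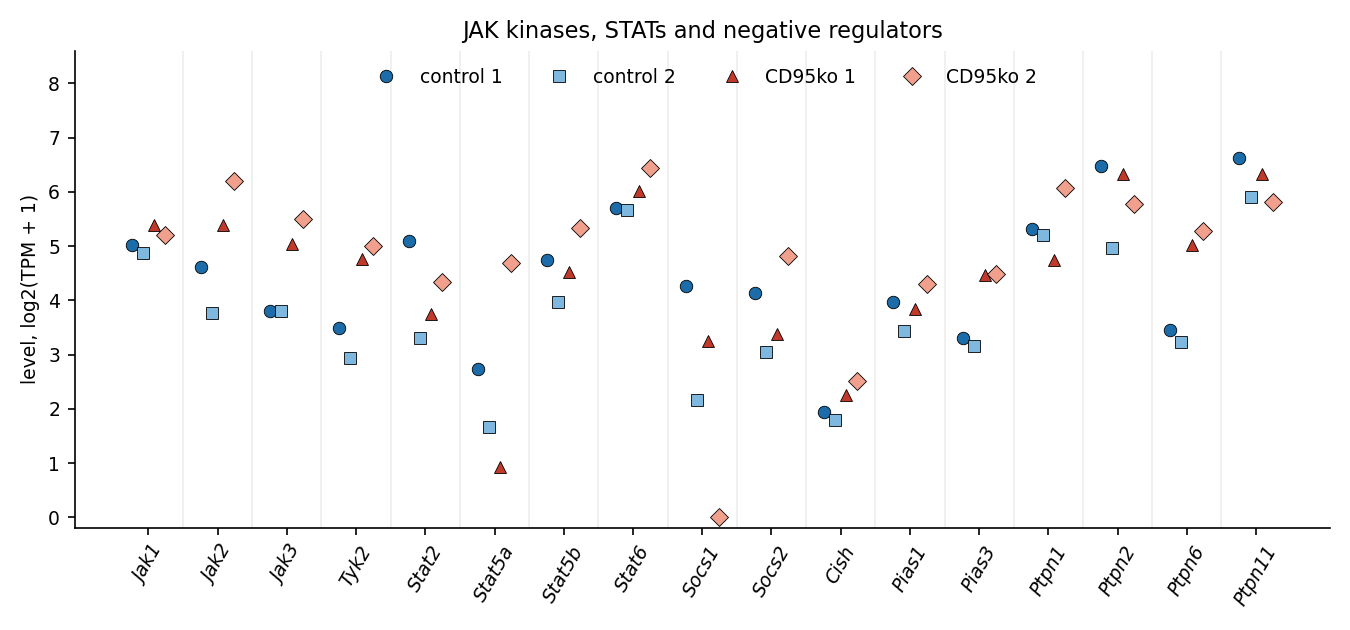
Level as log2(TPM + 1) of the JAK kinases, other STATs and negative regulators, with 1 point per library and the same symbols as for the members. Both clones lie above both controls for Jak1, Jak2, Jak3 and Tyk2, for Stat6, and for Cish (not after quantile normalization), Pias3 and Ptpn6, and Socs1 is at 0 in CD95ko 2.

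Of 5 genes for shedding of the IL-6 receptor or its control, 4 were tested, and Timp3, an inhibitor of the proteases, was at 0 in 3 libraries and at 0.69 TPM in CD95ko 2. Adam10, a membrane protease that can release the receptor, was 29 and 18.3 TPM in controls and 41.7 and 42.5 TPM in the clones (log2 fold change 0.84 ± 0.41 SE, limma adjusted p = 0.379). Adam17, the main inducible protease of this step, was 28.8 and 22.6 TPM in controls and 40.6 and 26.3 TPM in the clones, with overlap. Its partners differed: Rhbdf1 was 59.2 and 44.4 TPM in controls and 71.8 and 118 TPM in the clones (limma adjusted p = 0.351), and Rhbdf2 overlapped between groups (limma adjusted p = 0.94). Of the 4 tested genes 0 reached a limma unadjusted p under 0.05.

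The STAT3 target genes lay on both sides. Of 26, 23 were tested, Icam1 and Saa3 passing the filter through the controls alone and Muc1 through the clones alone. At a limma unadjusted p under 0.05, 1 was higher and 5 were lower in the clones, against 9.25% and 5.68% of all tested genes. Of the 23, 0 passed after adjustment. The median log2 fold change was -0.09 against 0.13 over all tested genes. Both clones lay below both controls for 7 targets and above both for 2, against 18.3% and 29.2% of all tested genes. Many of these genes also answer to other factors, such as NF-κB for Icam1, Bcl3 and Saa3, so the list is not a readout of STAT3 alone.

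Icam1, an adhesion molecule for leukocytes, was listed at 8.09 and 8.35 TPM in controls and at 0 in both clones (limma unadjusted p = 0.000712, limma adjusted p = 0.108). Its log2 fold change was -3.20 with all 4 libraries. Because both clones were at 0, leaving out 1 of them could not change that value. Icam1 passed the filter on low values through the controls alone, so its p-value is only a description. Saa3, an acute-phase protein gene, was 2.98 and 19.6 TPM in controls and listed at 0 in both clones (limma adjusted p = 0.164). Saa3 also passed the filter through the controls alone. Myc, the growth-promoting transcription factor, was 716 and 659 TPM in controls, 311 TPM in CD95ko 1 and 106 TPM in CD95ko 2 (log2 fold change -1.91 ± 0.46 SE, limma adjusted p = 0.147). The Myc value was -2.68 without CD95ko 1 and -1.14 without CD95ko 2. Bcl3 and Ccnd1, the other lower targets, are named because of their p-values. Bcl3, an atypical IκB protein, was 25 and 19.2 TPM in controls and 1.79 and 9.34 TPM in the clones (limma adjusted p = 0.223). Its log2 fold change was -3.04 without CD95ko 2 and -1.15 without CD95ko 1. Ccnd1, cyclin D1, was 277 and 429.6 TPM in controls and 171 and 223 TPM in the clones (limma adjusted p = 0.297).

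Fos, an immediate-early transcription factor and the higher target, was listed at 8.77 and 7.06 TPM in controls, 25.5 TPM in CD95ko 1 and 155 TPM in CD95ko 2 (log2 fold change 2.86 ± 0.74 SE, limma adjusted p = 0.159). Without CD95ko 1 its log2 fold change was 4.14, and without CD95ko 2 it was 1.58. Of the 23 tested targets, 8 were above both controls in CD95ko 2 and not above the higher control in CD95ko 1. They were Bcl2l1, Pim1, Junb, Hif1a, Vegfa, Il4ra, Lcn2 and Tgm2. Stat3 also meets this rule, with CD95ko 1 at the level of control 1. Unlike Stat3, the targets Bcl2l1, Junb and Lcn2 were below both controls in CD95ko 1. The 8 targets are named after their values were seen, so they are described without a test. The share of all tested genes with this pattern was not computed, so the number is not read as a result about STAT3 targets. Lcn2, which encodes the iron-sequestering protein lipocalin 2, was 383 and 497 TPM in controls, 214 TPM in CD95ko 1 and 2323 TPM in CD95ko 2. Tgm2, a transglutaminase, was 89.3 and 58 TPM in controls, 81.9 TPM in CD95ko 1 and 383 TPM in CD95ko 2. Pim1, a survival kinase, was 51.1 and 26.4 TPM in controls, 41.3 TPM in CD95ko 1 and 135 TPM in CD95ko 2. Bcl2l1, which encodes an inhibitor of apoptosis, was 86.8 and 104 TPM in controls, 52.2 TPM in CD95ko 1 and 111 TPM in CD95ko 2. The remaining 15 targets did not have this pattern.

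**Figure D5:**
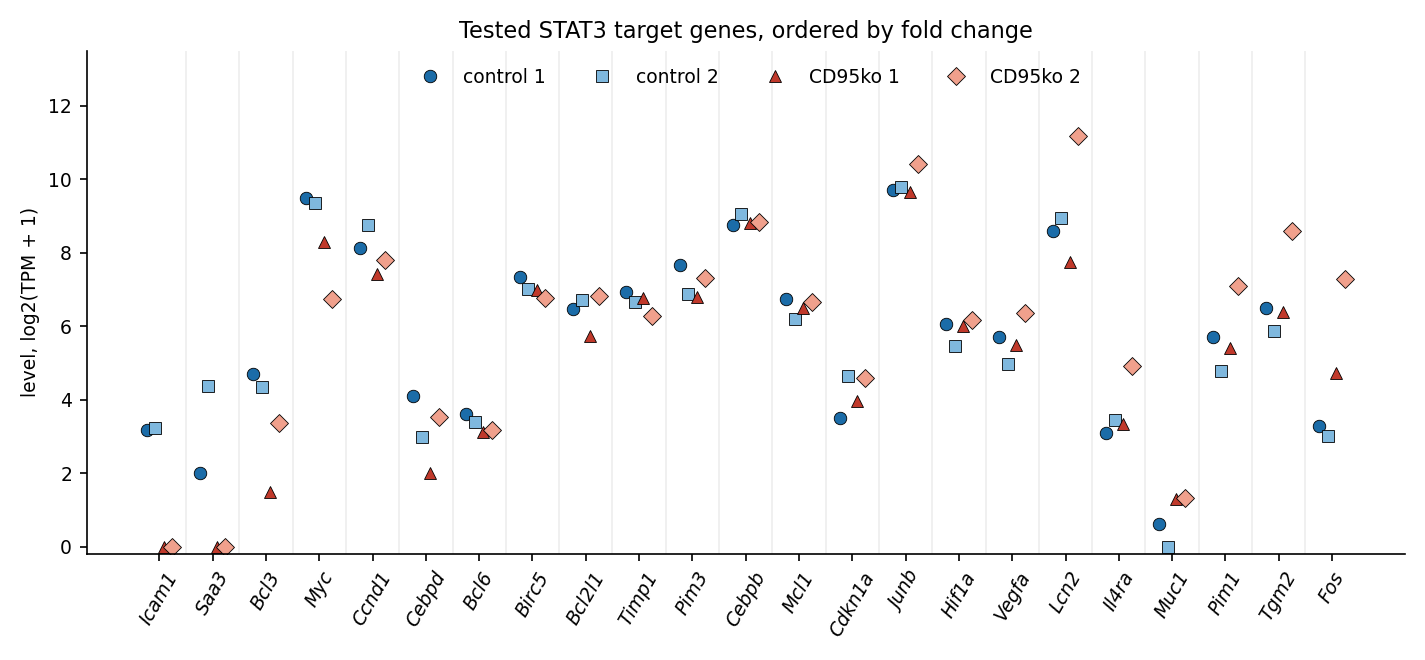
Level as log2(TPM + 1) of the 23 tested STAT3 target genes, ordered by fold change from the lowest on the left, with 1 point per library. Icam1 and Saa3 are at 0 in both clones on the left, and Pim1, Tgm2, Lcn2 and Fos are among the targets highest in CD95ko 2.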

How the data were processed

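Poly(A)-selected RNA of 4 libraries of 4T1 cells was sequenced, and the authors deposited 1 table of TPM per library, per the file headers. The submitters' processing notes name STAR 2.6.0, RSEM 1.3.0 and mm10, without roles. The annotation and strand setting are not given in the sources used here. Per the labels' protocols the cDNA was amplified by PCR, and no molecular identifiers are mentioned. TPM holds no read numbers, so no counting interval or detection floor is given.

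Groups came from the sample titles. Genes with at least 1 TPM in at least 2 libraries (11167 of 24411) were transformed to log2(TPM + 1) and compared across all genes with limma 3.58.1 in R 4.3.3 (trended eBayes, no covariate, two-sided), with Benjamini-Hochberg adjustment over all tested genes and a threshold of 0.05. The procedure was tested on simulated normal values with the fitted means and variances. That checks the code and not how well the model suits these data. Fold changes on this scale understate the change of low genes. The members and lists were chosen with earlier results of these data known, so no list is independent evidence of a direction. Named genes are the members, Fas, and up to 4 genes per pathway list with the smallest p-value. Others, among them Jak1, Stat6, Stat5a and Ptpn11, are named outside that rule, some with the reason given beside them. Some genes of the lists are not reported here by name, though the counts include them. Genes with the nearest profile were sought for the 3 members of widest range. The alternatives were a pseudocount of 0.1, no filter, a mean of at least 5 TPM, eBayes without trend, robust eBayes, quantile normalization, a replicate block and leaving out each library.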

Additional observations from a re-analysis of the deposited data

How the results depend on the processing

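No member passed a limma adjusted p of 0.05 under any alternative, with limma adjusted p-values of the members from 0.0939 (Stat3 without CD95ko replicate 1) to 0.993. The number of members at a limma unadjusted p under 0.05 was 1 as reported, 0 with a mean of at least 5 TPM, 0 without control replicate 1, 0 without control replicate 2 and 3 without CD95ko replicate 1 (Lif, Stat3 and Socs3, not Il6ra). Il6ra itself had a limma unadjusted p of 0.05 or more in 4 of 11 alternatives. With all 4 libraries, no member changed direction. When 1 library was left out, 4 member values changed sign: Il11 ranged from -1.12 to 0.76, Il6st from -0.315 to 0.0236 and Osmr from -0.0426 to 1.83. Among the other named genes Ctf1 was -0.16 under quantile normalization and ranged from -0.83 to 1.02, Fas from -1.42 to 0.16, Il11ra1 from -3.00 to 0.42, Rhbdf2 from -0.388 to 0.201, Socs1 from -3.21 to 0.0284, Lcn2 from -1.02 to 2.41, Stat5a from -1.28 to 2.49 and Ptpn11 from -0.54 to 0.169. Leaving out a library leaves its group with 1, which is assumed to vary like the other group.

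Of the pathway list genes, 0 passed with all 4 libraries and 0 to 10 when 1 was left out (10 without CD95ko replicate 1, 3 without CD95ko replicate 2). The number of all genes past the threshold, 6 as reported, came to 0 at the smaller pseudocount (0.1), 0 with no filter, 55 with a mean of at least 5 TPM, 0 without the trend, 52 with robust eBayes, 0 under quantile normalization and 0 to 1034 when 1 library was left out (194 without CD95ko replicate 2). The corresponding numbers at a limma unadjusted p under 0.05 for the settings with 0 were, in the same order, 1553, 1636, 1531 and 1862. The cause of these changes was not tested. The median log2 fold change over all genes went from 0.13 to 0.00204 under quantile normalization. Sharing a replicate number did not make libraries deviate together (deviations of same-numbered libraries correlated at -0.081 across genes). With the replicate block 2 of all genes and 0 members passed.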

Other observations

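The members of widest range over the 4 libraries were Osmr, Il6ra and Stat3. Likeness to them was measured as the root mean square distance between log2(TPM + 1) profiles, each centred on its own mean over the 4 libraries, and with 4 libraries it is a description only. Nearest to Stat3 were Mfsd9, at a distance of 0.0428 (1.52 and 0.42 TPM in controls, 1.5 and 4.19 TPM in the clones), and Echdc3, at 0.0445 (43.8 and 24.8 TPM in controls, 46.2 and 98.4 TPM in the clones). In all, 19 tested genes lay within 0.1 of Stat3. Nearest to Il6ra were Mospd3, at 0.0511 (13.7 and 17.1 TPM in controls, 50.3 and 40.5 TPM in the clones), and Slc25a30, at 0.0844 (12.4 and 14.4 TPM in controls, 43.5 and 38.4 TPM in the clones), with 4 genes within 0.1. Nearest to Osmr were 4933404O12Rik, at 0.0772 (7.44 and 1.63 TPM in controls, 9.85 and 5.77 TPM in the clones), and Kdm2b, at 0.0793 (27.02 and 7.81 TPM in controls, 33.8 and 21.5 TPM in the clones), with 6 genes within 0.1.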
